A study of Stylosanthes guianensis with 6 samples.

Results

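Genes described as disease resistance proteins were examined in leaves of stylo (Stylosanthes guianensis), a tropical forage legume, under Mn toxicity. They are 106 of the 102864 unigenes (assembled transcripts taken as genes) of the leaf transcriptome, and 106 of the 631 unigenes that the study grouped as defence-related differentially expressed genes. They were chosen because their description in that group contains "disease resistance" or "resistance protein". The study had picked the group by its difference between the same Mn toxicity and control libraries that are described here. Levels and differences between the treatments are therefore given as a description, without p-values, and a difference between the treatments is not in itself a result.

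All plants were of the genotype TF303 and grew in hydroponic culture in Hoagland solution. Mn toxicity plants then received 400 μM MnSO4 for 10 d, and control plants received 5 μM MnSO4 for 10 d, which is the Mn level of the basic solution. Leaf RNA of each treatment was sequenced as 3 libraries, and a hydroponic box with several seedlings was a replicate. The sample labels write mM for these concentrations, whereas the design and the study's methods write μM, which was used.

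Most disease resistance genes of plants encode NLR proteins, intracellular receptors with a nucleotide-binding domain (NB-ARC) and leucine-rich repeats (LRR). They recognise pathogen effectors, directly or through the host protein that the effector changes, and start effector-triggered immunity, which often ends in death of the infected cell. A Toll/interleukin-1 receptor (TIR) domain or a coiled-coil (CC) domain at the N-terminal end divides them into TIR and CC types. Plant genomes hold many NLR genes, often in clusters of close copies, and most are expressed weakly in healthy leaves.

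The descriptions divide the 106 members into 5 groups. TMV resistance protein N, named after the TIR-type receptor of tobacco that recognises tobacco mosaic virus, was the description of 29 members. A further 19 members carried another TIR-type description (TIR-NBS-LRR class, TAO1, RML1A or At4g11170). There were 35 members with a CC-type description (CC-NBS-LRR, RPP13, RPP8, RGA4, At3g14460, At4g27190 or Rps1-k-2), 22 whose description names no type, and 1 that is not an NLR protein but a dirigent-type protein, described as a disease resistance response protein. The best match was a legume protein for 98 members and a protein of another plant for 8.

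The protein domain entries held here cover 83 of the 106 members and gave a check of these names that the rule did not use. Of these 83, 57 carried an NB-ARC, TIR or leucine-rich repeat entry, 24 carried no entry, and 2 carried another entry, 1 of them the dirigent-like domain of that member. A TIR domain was entered for 14 members, of which 13 had a TIR-type description (10 of them TMV resistance protein N) and none a CC-type description. The remaining 1, TRINITY_DN46042_c1_g1, is described only as NBS-LRR type. The recovered unigene lengths were 203 to 4650 bp with a median of 662 bp, most of them shorter than a complete NLR coding sequence, and several may belong to the same gene.

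Members were weakly expressed. Their median RPKM (reads per kilobase of unigene, relative to all mapped reads), averaged over the 6 libraries, was 1.71, with a range of 0.224 to 23.8. Library totals were recovered from the steps of the RPKM values and are not the clean reads that the study counted. They were 36.2 to 37.8 M reads under Mn toxicity and 31.1 to 37.0 M reads in the control. With these totals 1 read was worth 0.0265 to 0.0321 RPKM for a unigene with a length of 1 kb. To enter the fit across all unigenes, a unigene needed an average RPKM of 0.5 or more, which 97 members reached. These 97 had a median level of 2.0 RPKM, and the 30913 unigenes that passed the same minimum had one of 4.52 RPKM. The other 9 members stay in the counts of directions and levels.

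Under Mn toxicity 38 of the 106 members were higher and 68 were lower than in the control (plot of all members by library). Of all 30913 tested unigenes 35.3% were higher, so the split of the members was near that of the whole leaf transcriptome. In the fit with limma on log2(RPKM + 0.5), 49 of the 97 fitted members passed an adjusted p of 0.05 with a difference of at least 1 on the log2 scale, 13 with a higher and 36 with a lower level. Among all 30913 tested unigenes 5.78% were called by this rule, 2.09% higher and 3.69% lower. Since the members were picked by this contrast, nothing is read from their larger share. The groups did not overlap for 103 of the 106 members (35 higher, 68 lower), beside 32% of all tested unigenes (9.41% higher, 22.6% lower), and again nothing is read from the larger share. The count of calls depended on the libraries used: leaving out Mn toxicity replicate 1 gave 12 members, Mn toxicity replicate 2 gave 75, Mn toxicity replicate 3 gave 65, and control replicates 1, 2 and 3 gave 9, 9 and 10. Over all unigenes the same fits called 289 to 4977, so nothing is read from these counts about the members.

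**Figure D1:**
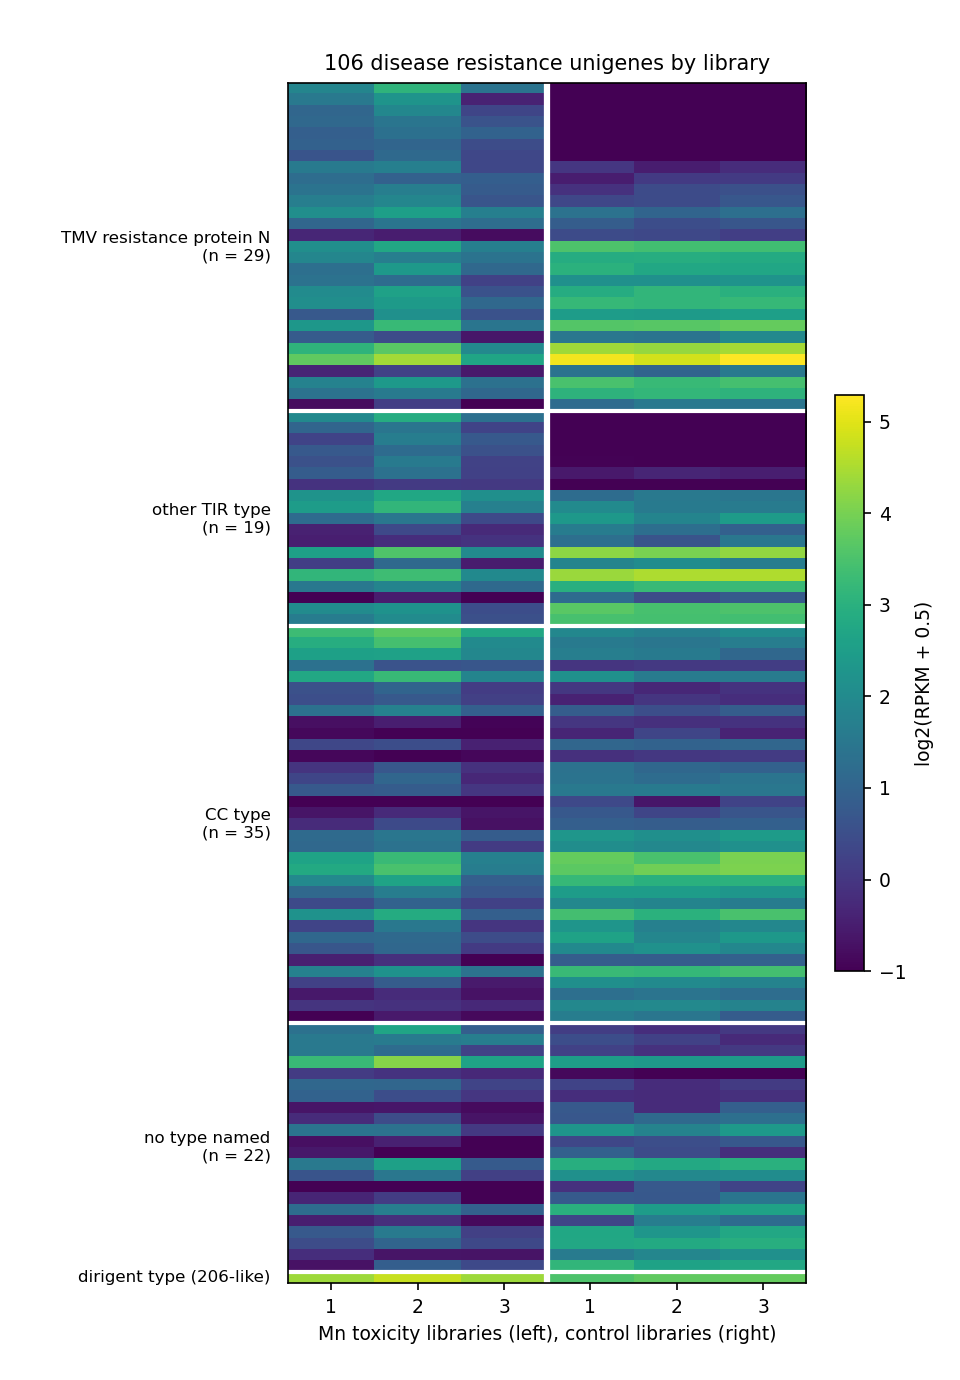
Level of each of the 106 members as log2(RPKM + 0.5), coloured, in the 3 Mn toxicity libraries (left) and the 3 control libraries (right). Rows are members grouped by the type in their description and ordered within a group by the difference between the treatments, highest first. The dark block at the upper right is the TIR-type members without a control read, and Mn toxicity library 3 is darker than Mn toxicity libraries 1 and 2 in most rows, since 88 of the 106 members were lowest there.

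The 3 Mn toxicity libraries differed from each other more than the 3 control libraries did. The median coefficient of variation of the 97 fitted members was 53.2% under Mn toxicity and 14.3% in the control, and that of all tested unigenes was 37.9% under Mn toxicity and 9.51% in the control. Among the Mn toxicity libraries, 86 of the 106 members were highest in library 2 and 88 were lowest in library 3. This order was general, since library 2 was highest for 80.5% and library 3 lowest for 82.4% of all tested unigenes. The 4 photosystem unigenes found in the descriptions, which cover differentially expressed genes only, had another order. All 4 are described as sequences of the chloroplast genome. Their summed RPKM was 877, 66.5 and 1557 in Mn toxicity libraries 1, 2 and 3, against 53.8, 101 and 75.4 in control libraries 1, 2 and 3. Most of this sum came from TRINITY_DN43869_c1_g4, with 710, 45.5 and 1267 RPKM in Mn toxicity libraries 1, 2 and 3.

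Median-of-ratios scaling weakened this order. Mn toxicity library 2 was then highest for 29.7% of all tested unigenes and for 52.8% of the members, a difference that was not tested. The median coefficient of variation of the fitted members was then 29.9% under Mn toxicity and 14.5% in the control. After this scaling, after quantile normalization and after scaling to equal sums of RPKM, each of the 97 fitted members kept its direction. The number called was 82 with median-of-ratios scaling (28 higher, 54 lower), beside 8.14% of all tested unigenes, 4.37% higher and 3.77% lower. In numbers these were 1350 unigenes higher and 1165 lower, where the deposited values gave 646 higher and 1141 lower. The median difference of all tested unigenes was -0.20 on the log2 scale in the deposited values and -0.00059 once median-of-ratios scaling was applied. Differences below are as deposited, so a member that moved with the median unigene has -0.20.

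Higher members made up a larger part of the TIR-type descriptions than of the others (plot of the differences by type). Of the 29 TMV resistance protein N members, 13 were higher and 16 lower, and of the other 77 members 25 were higher and 52 lower. The 19 members with another TIR-type description had 9 higher and 10 lower, close to the N members. In the CC type 8 of 35 were higher, and among members with no type named 7 of 22. Counting only members with more than 1 control read, the higher ones were 6 for N and 3 for the other TIR type. They were 8 for the CC type and 6 with no type named. The larger part among the TIR types thus rests on members with at most 1 control read, described below. These counts come from members picked by the same contrast and were not tested.

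The medians of the groups were alike, and each fell among the lower members. Picking the members by this contrast leaves a gap between higher and lower ones, so nothing is read from this likeness. On the log2 scale the group medians were -1.23 for TMV resistance protein N, -1.28 for the other TIR type, -1.19 for the CC type and -1.25 where no type is named. The higher members differed more between the groups, with medians of 1.71 for N, 1.81 for the other TIR type, 0.82 for the CC type and 0.93 where no type is named. The 6 higher N members with more than 1 control read had 0.58 to 1.43, and the 3 of the other TIR type 0.70 to 1.26. Higher CC-type members had 0.60 to 1.36, and fitted ones with no type named 0.67 to 1.63. The larger TIR-type medians thus rest on members with at most 1 control read, whose differences depend on the pseudocount. Placing the members without control reads at their lower limit, given below, leaves the 4 group medians as they are and makes the medians of the higher members 2.43 for N and 2.37 for the other TIR type. The lower members had medians of -1.35 for N, -1.61 for the other TIR type, -1.26 for the CC type and -1.40 where no type is named.

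**Figure D2:**
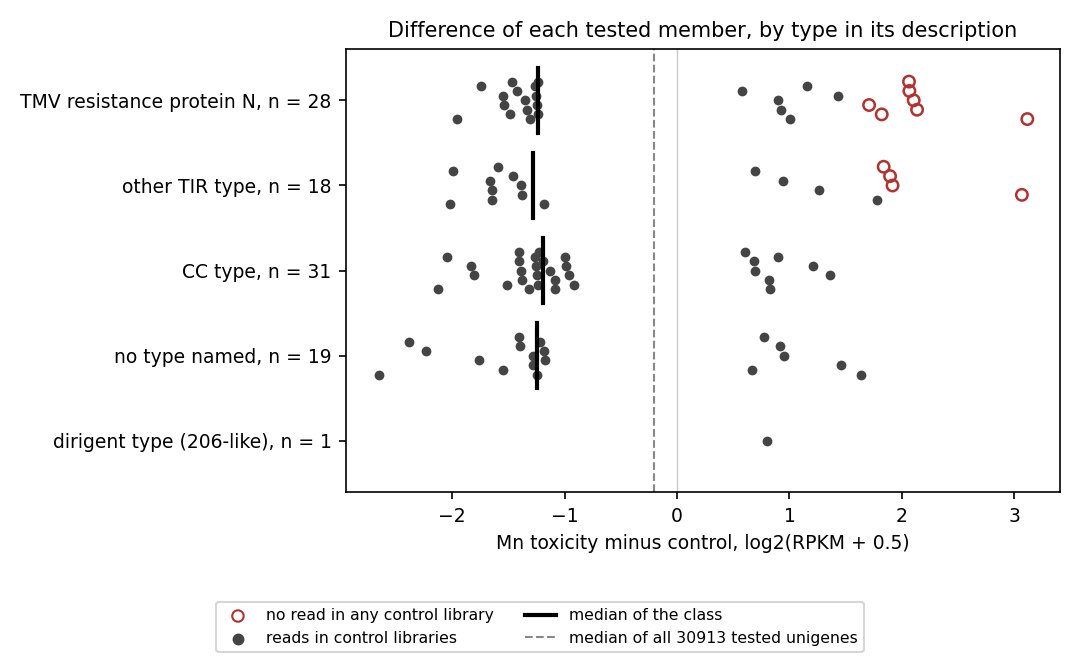
Difference of each of the 97 fitted members between Mn toxicity and control on log2(RPKM + 0.5), by the type in the description. Black bars are group medians, open red circles are members with no read in any control library, and the dashed line is the median of all tested unigenes at -0.20. Open circles appear among the N and other TIR types alone, and the gap around 0 is set by the way the members were picked.

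The control libraries held no read of 12 members that had reads in all 3 Mn toxicity libraries. All 12 had a TIR-type description, 7 of them TMV resistance protein N and 5 another TIR type, and they lay in 9 assembly components. No member of the CC type or without a named type showed this pattern. It was not confined to TIR-type descriptions outside the members. Of 28 further unigenes with an NB-ARC or TIR entry or an NLR-type description, listed below, 3 had it. Among these, TRINITY_DN48108_c3_g12 (12, 10 and 8 reads under Mn toxicity) and TRINITY_DN45629_c2_g2 (5, 9 and 6 reads) carry an NB-ARC entry and no TIR-type description. Among the 51569 unigenes with a read in any library the pattern was found in 323, that is 0.626%, in 48 of the 1854 unigenes with a description, which come from the study's tables of differentially expressed genes, and in 23 of the 631 defence-related unigenes, of which the members are 12. The members were picked by this contrast, so nothing is read from their larger share. With no reads in a control library, a level of up to 3 reads remains possible there, which is 0.109 to 0.419 RPKM for these 12 members, and this limit covers counting error only.

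The N member with the largest difference was TRINITY_DN43299_c1_g5, which carries a TIR domain entry. It had 3.12, 7.95 and 2.15 RPKM (80, 195 and 55 reads) in Mn toxicity libraries 1, 2 and 3, against no read in control libraries 1, 2 and 3. Against 3 reads per control library this was at least 34.4-fold higher. All 3 Mn toxicity libraries lay above the control, with library 2 far above the others.

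TRINITY_DN47705_c1_g3, described as TIR-NBS-LRR class and with a leucine-rich repeat entry, had 3.45, 6.98 and 1.99 RPKM in Mn toxicity libraries 1, 2 and 3 and no control read, which was at least 29.3-fold higher. The same component holds a second such member, TRINITY_DN47705_c1_g2 of the N type with an NB-ARC entry, at 1.68, 2.24 and 1.04 RPKM and no control read, at least 14.1-fold higher. Both had the same order of libraries as the N member above. The longest unigene of this component, TRINITY_DN47705_c1_g1, is no member and had 7.88, 11.7 and 4.98 RPKM under Mn toxicity, against 8.21, 7.24 and 8.96 RPKM in the control, so that the groups overlapped.

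Of the other N members without control reads, TRINITY_DN47924_c1_g3 had 1.60, 3.29 and 0.748 RPKM under Mn toxicity, at least 10.7-fold above the control limit. TRINITY_DN43299_c1_g4 had 1.37, 2.0 and 1.46 RPKM, at least 5.38-fold above it. TRINITY_DN48125_c2_g1 had 2.43, 4.27 and 0.256 RPKM, at least 5.53-fold above it on average. This last member is only 207 bp long, had 2 reads in Mn toxicity library 3, below the control limit of 3 reads, and was not called as deposited but was called after median-of-ratios scaling.

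Across the 12 members the lower limits of the fold difference were 2.07 to 34.4, with a median of 9.32 (plot of the members without control reads). Mn toxicity library 2 was the highest of the Mn toxicity libraries for each of the 12. The weakest, TRINITY_DN44530_c1_g2 (RML1A-like), rested on 6, 7 and 7 reads under Mn toxicity. A further member of the other TIR type, TRINITY_DN47409_c1_g1, had 71, 172 and 50 reads under Mn toxicity against 1, 0 and 0 reads in the control, a ratio of 274 with an exact 95% interval of 48.7 to 10848 that covers counting error only. Both were chosen after their values were seen.

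**Figure D3:**
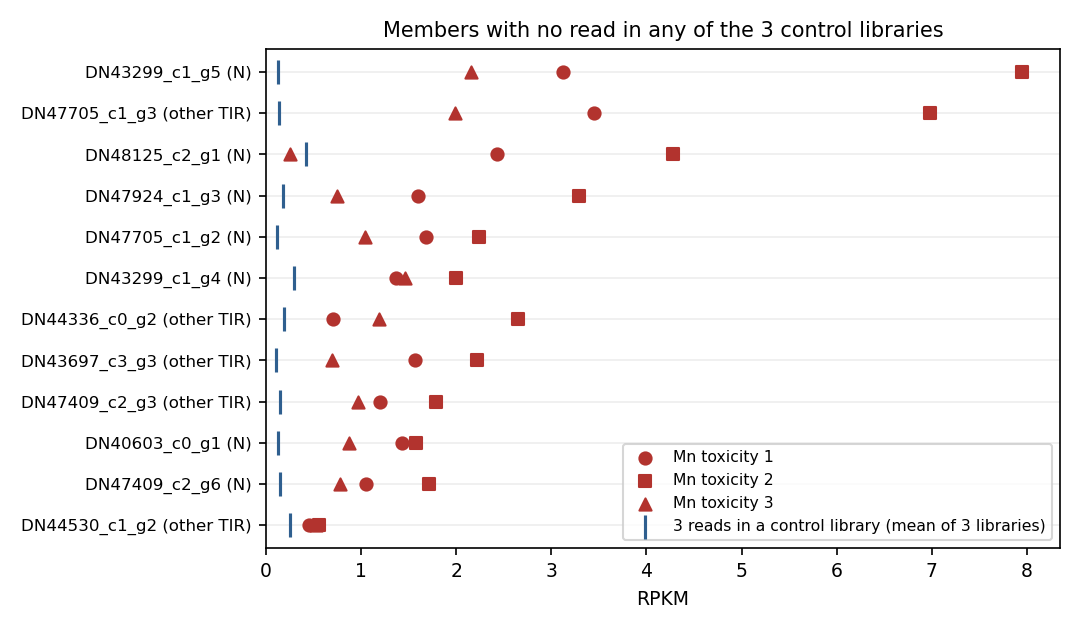
RPKM of the 12 members with no read in any control library, in Mn toxicity libraries 1 (circles), 2 (squares) and 3 (triangles). The vertical marks give the RPKM of 3 reads in a control library, and names are without the prefix TRINITY_. All Mn toxicity values lie above the mark except library 3 of DN48125_c2_g1.

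The opposite pattern was rarer among the members. No read in any Mn toxicity library with reads in all 3 control libraries was found for 2 members, beside 1.01% of the unigenes with a read (523 unigenes). TRINITY_DN44865_c0_g3, described as RGA4, had 16, 3 and 12 reads in the control and was at least 3.76-fold lower under Mn toxicity. TRINITY_DN46909_c1_g1, with no type named, had 5, 14 and 7 reads in the control and was at least 3.06-fold lower. Neither has a TIR-type description, and both were chosen after their values were seen.

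The 2 most abundant N members were lower under Mn toxicity. TRINITY_DN48097_c1_g1, the most abundant of all members, had 13.0, 20.8 and 5.99 RPKM under Mn toxicity, against 35.7, 28.5 and 38.6 RPKM in the control, a difference of -1.48 ± 0.38 (SE, n = 3 libraries each) on the log2 scale. TRINITY_DN48153_c6_g4 had 8.06, 12.4 and 3.36 RPKM under Mn toxicity, against 20.7, 19.2 and 21.2 RPKM in the control, a difference of -1.47 ± 0.38. Both carry an NB-ARC entry, and in both the groups were apart, while the Mn toxicity libraries spread more than the control libraries.

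Levels of the N members are given here by direction. The 13 higher N members had a median control level of 0.00 RPKM and a median Mn toxicity level of 1.91 RPKM. The 16 lower ones had a median of 2.73 RPKM under Mn toxicity and of 7.21 RPKM in the control. Members were picked for a difference and then divided by its direction, which by itself sets the control levels of these groups apart. Nothing is read from that gap. Summed over the 29 N members, the level was 79.6, 122 and 42.9 RPKM in Mn toxicity libraries 1, 2 and 3, against 150, 138 and 155 RPKM in the control libraries, so that the sum was lower under Mn toxicity although 13 members were higher.

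Among the other TIR-type members the most abundant ones were also lower. TRINITY_DN42886_c0_g1, described as At4g11170, had 8.31, 9.63 and 3.49 RPKM under Mn toxicity, against 19.9, 22.2 and 22.7 RPKM in the control, a difference of -1.64 ± 0.34 (SE). TRINITY_DN46180_c0_g2, of the TIR-NBS-LRR class, had 5.44, 11.2 and 3.55 RPKM under Mn toxicity, against 18.3, 15.7 and 18.9 RPKM in the control, a difference of -1.46 ± 0.36. The groups were apart in both.

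TRINITY_DN46460_c0_g1, also of the TIR-NBS-LRR class and with 3573 bp the longest of this group, had a larger difference. It had 2.60, 3.61 and 0.950 RPKM under Mn toxicity, against 10.4, 10.3 and 10.0 RPKM in the control, a difference of -2.02 ± 0.37. The control libraries were nearly equal and the Mn toxicity libraries lay far below them.

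CC-type members were mostly lower, 27 of 35. RPP13 and RPP8 are Arabidopsis receptors of the downy mildew pathogen, and RPP13 was the commonest name among them. TRINITY_DN46825_c4_g6 (RPP13-like) had 0, 3 and 1 reads under Mn toxicity, against 46, 40 and 19 reads in the control, and a difference of -2.13 ± 0.33 that depends on the pseudocount. TRINITY_DN45387_c2_g4 (RPP13-like) had 0.456, 0.433 and 0.332 RPKM under Mn toxicity, against 3.35, 3.38 and 3.02 RPKM in the control, a difference of -2.05 ± 0.28. The groups were far apart in this member, and Mn toxicity library 2 was not the highest.

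The most abundant CC-type members were lower by less. TRINITY_DN45237_c0_g1 had 6.62, 10.6 and 2.69 RPKM under Mn toxicity, against 12.6, 14.8 and 16.0 RPKM in the control, a difference of -1.24 ± 0.40. TRINITY_DN47435_c0_g1, with a leucine-rich repeat entry, had 5.72, 9.12 and 2.86 RPKM under Mn toxicity, against 13.5, 10.8 and 15.8 RPKM in the control, a difference of -1.23 ± 0.37. Neither was called as deposited, and both were called after median-of-ratios scaling. Of the 8 higher CC-type members only TRINITY_DN45602_c0_g2 (RGA4), named here after its value was seen, was called as deposited, at 9.38, 12.5 and 6.31 RPKM under Mn toxicity against 3.26, 2.82 and 3.68 RPKM in the control.

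Of the members with no type named, 15 of 22 were lower, and 3 of them are among the 6 lowest differences of all members. TRINITY_DN48108_c3_g13 had the lowest of all, with 0.121, 1.35 and 0.808 RPKM under Mn toxicity, against 8.36, 5.64 and 6.37 RPKM in the control, a difference of -2.65 ± 0.41. TRINITY_DN46958_c1_g5, with an NB-ARC description, had 3, 1 and 1 reads under Mn toxicity, against 19, 24 and 25 reads in the control, a difference of -2.38 ± 0.31. TRINITY_DN48124_c7_g2 (resistance protein PLTR) had 0.875, 1.54 and 0.784 RPKM under Mn toxicity, against 6.36, 6.53 and 7.21 RPKM in the control, a difference of -2.23 ± 0.29. The groups were apart in each of the 3.

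The most abundant members of this group went in opposite directions. TRINITY_DN46636_c0_g1 (NBS-LRR type) had 9.08, 17.2 and 5.73 RPKM under Mn toxicity, against 5.21, 4.66 and 4.84 RPKM in the control, a difference of 0.92 ± 0.36. TRINITY_DN43158_c0_g2 (PLTR) had 2.42, 5.48 and 1.21 RPKM under Mn toxicity, against 7.26, 6.42 and 7.44 RPKM in the control, a difference of -1.28 ± 0.41. Neither was called as deposited.

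The dirigent-type member, TRINITY_DN38451_c0_g2, was the second most abundant of the 106 and higher under Mn toxicity. Dirigent proteins guide the coupling of monolignol radicals in lignan and lignin synthesis, and the disease resistance response protein of this type in pea is induced by fungi. It had 20.1, 26.6 and 20.3 RPKM under Mn toxicity, against 11.0, 13.1 and 13.5 RPKM in the control, a difference of 0.80 ± 0.22 in the deposited values and of 1.04 on median-of-ratios scaling. Unlike 88 of the 106 members, it was not lowest in Mn toxicity library 3.

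Unigenes of 1 assembly component share sequence, and reads can be divided among them, so their separate values are less certain. The 106 members lay in 89 components, of which 13 held 2 or more members, 30 members in all. In 6 of these 13 components some members were higher and others lower under Mn toxicity (plot of these components). The 351 other tested unigenes of the 89 components had a median difference of -0.33, beside -0.20 for all tested unigenes. Of the 351, 8 were called higher and 12 lower, beside 2.09% higher and 3.69% lower of all tested unigenes. Component totals below are as deposited, without median-of-ratios scaling. The general order of the Mn toxicity libraries is therefore part of their spread, and a total within this spread does not show that the component was unchanged.

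In component DN43299 the N members TRINITY_DN43299_c1_g5 and TRINITY_DN43299_c1_g4 had no control read, while the N member TRINITY_DN43299_c1_g2 was lower, at 3.80, 4.89 and 1.67 RPKM under Mn toxicity against 8.75, 8.37 and 8.85 RPKM in the control (difference of -1.31 ± 0.34). Its member TRINITY_DN43299_c1_g6, of the TIR-NBS-LRR class, had 5.02, 8.27 and 2.81 RPKM under Mn toxicity, against 3.56, 2.52 and 2.58 RPKM in the control, so that the groups overlapped. Over all 7 unigenes of the component the summed level was 24.4 ± 12.0 reads per 1000000 library reads under Mn toxicity and 23.4 ± 0.0759 in the control (SD, n = 3 each), a difference smaller than the spread of the Mn toxicity libraries.

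Component DN43697 had the same form. TRINITY_DN43697_c3_g3 of the TIR-NBS-LRR class had 1.56, 2.22 and 0.699 RPKM under Mn toxicity and no control read, at least 13.7-fold higher. TRINITY_DN43697_c2_g2 (PLTR) had 1.04, 2.34 and 0.641 RPKM under Mn toxicity, against 3.93, 3.34 and 3.69 RPKM in the control, a difference of -1.28 ± 0.36. The component also holds an abundant unigene that is no member, so its summed reads say little of these members.

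Component DN44890 held 2 RPP13-like members in opposite directions. TRINITY_DN44890_c0_g1 had 7.03, 10.2 and 3.52 RPKM under Mn toxicity, against 2.48, 2.28 and 2.66 RPKM in the control, a difference of 1.21 ± 0.36. TRINITY_DN44890_c0_g2 had 0.464, 1.13 and 0.434 RPKM under Mn toxicity, against 2.10, 1.64 and 1.43 RPKM in the control, a difference of -0.96 ± 0.33. The component as a whole had 8.96 ± 4.37 reads per 1000000 under Mn toxicity and 7.68 ± 0.149 in the control (SD), a difference smaller than the spread of the Mn toxicity libraries.

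In component DN45197, TRINITY_DN45197_c2_g5 (resistance protein, NB-ARC entry) had 2.4, 2.54 and 2.72 RPKM under Mn toxicity, against 0.892, 0.662 and 0.345 RPKM in the control, a difference of 1.46 ± 0.31. In the deposited values it was the steadiest of the named members across the Mn toxicity libraries. Median-of-ratios scaling divides Mn toxicity libraries 1, 2 and 3 by 0.977, 1.29 and 0.628, so this steadiness does not hold after it. TRINITY_DN45197_c2_g4 (RPP13-like) had 0.139, 0.338 and 0.139 RPKM under Mn toxicity, against 1.16, 0.754 and 1.07 RPKM in the control, a difference of -1.08 ± 0.30. The whole component had 3.18 ± 0.773 reads per 1000000 under Mn toxicity and 3.14 ± 0.363 in the control (SD), which did not differ beyond this spread.

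The last 2 of these components hold members with no type named. In DN46000, TRINITY_DN46000_c0_g2 had 12, 9 and 7 reads under Mn toxicity against 1, 0 and 0 reads in the control, a ratio of 26.2 with an exact 95% interval of 4.32 to 1070 for counting error. TRINITY_DN46000_c1_g9 had 0.218, 0.398 and 0.0546 RPKM under Mn toxicity, against 0.741, 2.67 and 1.78 RPKM in the control. In DN48136, TRINITY_DN48136_c0_g2 had 1.66, 1.61 and 0.712 RPKM under Mn toxicity, against 0.702, 0.363 and 0.575 RPKM in the control, and TRINITY_DN48136_c6_g1 had 2.15, 2.09 and 0.526 RPKM under Mn toxicity, against 4.34, 3.02 and 4.69 RPKM in the control. In both components the members went in opposite directions without overlap between the treatments.

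**Figure D4:**
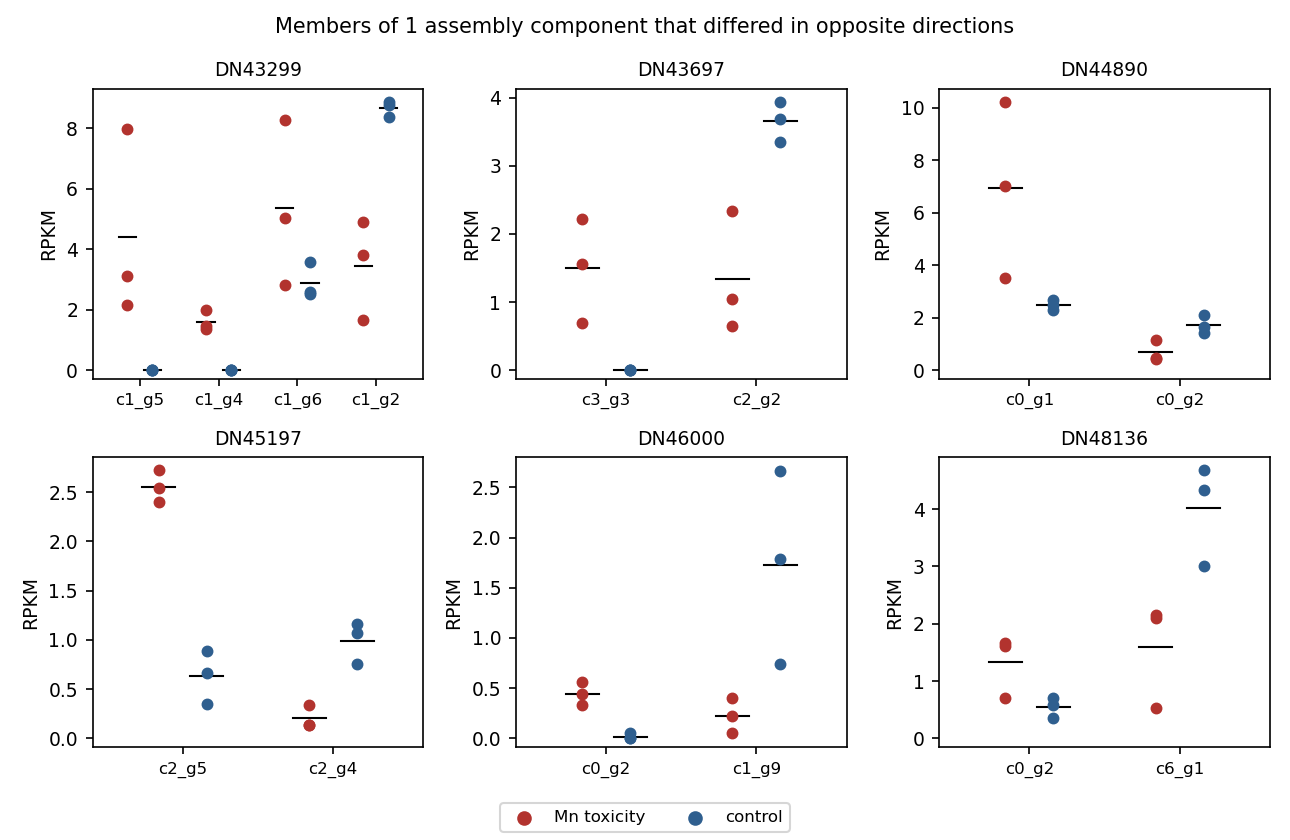
RPKM of the members of the 6 assembly components in which members differed in opposite directions, in the Mn toxicity libraries (red, left of each pair) and the control libraries (blue, right of each pair). Each dot is a library and the bar is the mean of 3 libraries. In DN43299 and DN43697 the higher members have no control read in c1_g5, c1_g4 and c3_g3, while c1_g2 and c2_g2 are lower under Mn toxicity.

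In component DN47409 all 4 members were higher, and they include both N and other TIR descriptions. TRINITY_DN47409_c2_g6 (N) and TRINITY_DN47409_c2_g3 (TAO1-like, after an Arabidopsis TIR-type receptor) had no control read, and TRINITY_DN47409_c1_g1 had 1. The fourth, TRINITY_DN47409_c2_g2, had 1.29, 2.04 and 0.655 RPKM under Mn toxicity, against 0.168, 0.281 and 0.223 RPKM in the control. The whole component had 16.3 ± 7.48 reads per 1000000 under Mn toxicity and 6.42 ± 0.0407 in the control (SD), and its members took 43.9% of these reads under Mn toxicity and 8.22% in the control. These members were chosen after their values were seen.

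The members nearest to a difference of 1 in size after median-of-ratios scaling show where the picked set ends. They were TRINITY_DN46398_c2_g1 (TIR-NBS-LRR) with 1.79, 2.33 and 0.800 RPKM under Mn toxicity against 4.58, 3.06 and 5.00 RPKM in the control, TRINITY_DN43547_c2_g1 (RPP13) with 2.04, 1.02 and 1.11 RPKM against 0.473, 0.531 and 0.604 RPKM, and TRINITY_DN47435_c0_g1, given above. After that scaling 14 fitted members were under 1 in size, the smallest at 0.77. Disease resistance unigenes that the study did not find to be differentially expressed were not analysed here.

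A list of 28 further unigenes carries an NB-ARC or TIR entry or an NLR-type description but was not taken by the rule, because the description that the rule reads lacks its words. For several, another annotation column does name a TMV resistance protein N or a resistance protein. They too come from tables of differentially expressed genes. Of these, 15 were higher and 13 lower, and 3 had no control read. The median difference of the 24 fitted was -0.12, but no fitted unigene lay near it. The smallest rise was 0.67 (TRINITY_DN47692_c2_g1) and the smallest fall -0.91 (TRINITY_DN42295_c0_g3). This median thus lies in the gap left by the way the list was picked, and nothing is read from it. Among the 24 fitted, 4 were called higher and 6 lower, and 8 higher and 8 lower after median-of-ratios scaling. The shares of all tested unigenes were 2.09% higher and 3.69% lower, and 4.37% higher and 3.77% lower after that scaling, and nothing is read from the larger shares of the list. TRINITY_DN48108_c3_g12, described as Rpp4C2 of common bean, had 1.84, 1.60 and 1.23 RPKM under Mn toxicity and no control read, while the member TRINITY_DN48108_c3_g13 of the same component had the lowest difference of all members.

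NLR proteins depend on partners, and other proteins act beside them in defence or cell death. SGT1 and cytosolic Hsp90 are the chaperone pair that keeps NLR proteins stable. Proteins of the NDR1/HIN1 family act in CC-type signalling in Arabidopsis, and BON1-associated proteins hold back cell death there. Mlo proteins of barley allow powdery mildew infection, and metacaspases are proteases of cell death. The descriptions gave 16 unigenes of these families, again from tables of differentially expressed genes. The Hsp90 family was taken as a whole. Endoplasmin, a unigene described as mitochondrial and a unigene that matched a fungal protein are therefore among them. Of these, 13 were higher and 3 lower, with a median difference of 1.29 among the 12 fitted. As deposited 6 of these were called higher and 1 lower, and after median-of-ratios scaling 8 higher and 1 lower. All tested unigenes had 2.09% called higher and 3.69% lower as deposited, and since the list was picked by this contrast nothing is read from its larger share.

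The SGT1 unigene, TRINITY_DN45258_c4_g5, had 1.86, 3.03 and 2.17 RPKM under Mn toxicity, against 1.15, 1.18 and 1.17 RPKM in the control, and was not called. The most abundant Hsp90-family unigene, TRINITY_DN42929_c2_g1 (endoplasmin, not the cytosolic form), had 98.8, 128 and 65.9 RPKM under Mn toxicity, against 51.4, 48.8 and 52.2 RPKM in the control. Its difference of 0.89 was called only after median-of-ratios scaling. The groups were apart in both. Another Hsp90-family unigene, TRINITY_DN42162_c2_g1, matched a fungal protein and was near 0 in all libraries but control 3.

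The 4 BON1-associated unigenes were all higher, 3 of them called. TRINITY_DN38828_c0_g1 had 12.0, 11.1 and 11.9 RPKM under Mn toxicity, against 1.80, 2.56 and 1.87 RPKM in the control, a difference of 2.25. The 4 NDR1/HIN1 unigenes (YLS9) were also all higher, 3 of them called, and TRINITY_DN39228_c0_g1 had 16.0, 20.3 and 18.4 RPKM under Mn toxicity, against 3.04, 4.02 and 4.10 RPKM in the control, a difference of 2.15. In both of these named unigenes the deposited values of the Mn toxicity libraries were close to each other. Others of the 2 families spread more, such as TRINITY_DN47445_c0_g2 with 9.39, 13.7 and 7.04 RPKM (plot of the partners). Median-of-ratios scaling divides Mn toxicity libraries 1, 2 and 3 by 0.977, 1.29 and 0.628, so the closeness does not hold after it.

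The Mlo and metacaspase unigenes were lower. TRINITY_DN48038_c2_g1 (MLO-like 12) had 0.358, 0.565 and 0.134 RPKM under Mn toxicity, against 0.918, 0.895 and 0.920 RPKM in the control. TRINITY_DN38541_c0_g1 (metacaspase-3-like) had 1.01, 1.78 and 1.05 RPKM under Mn toxicity, against 3.47, 4.49 and 3.39 RPKM in the control, a difference of -1.29 that was called.

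**Figure D5:**
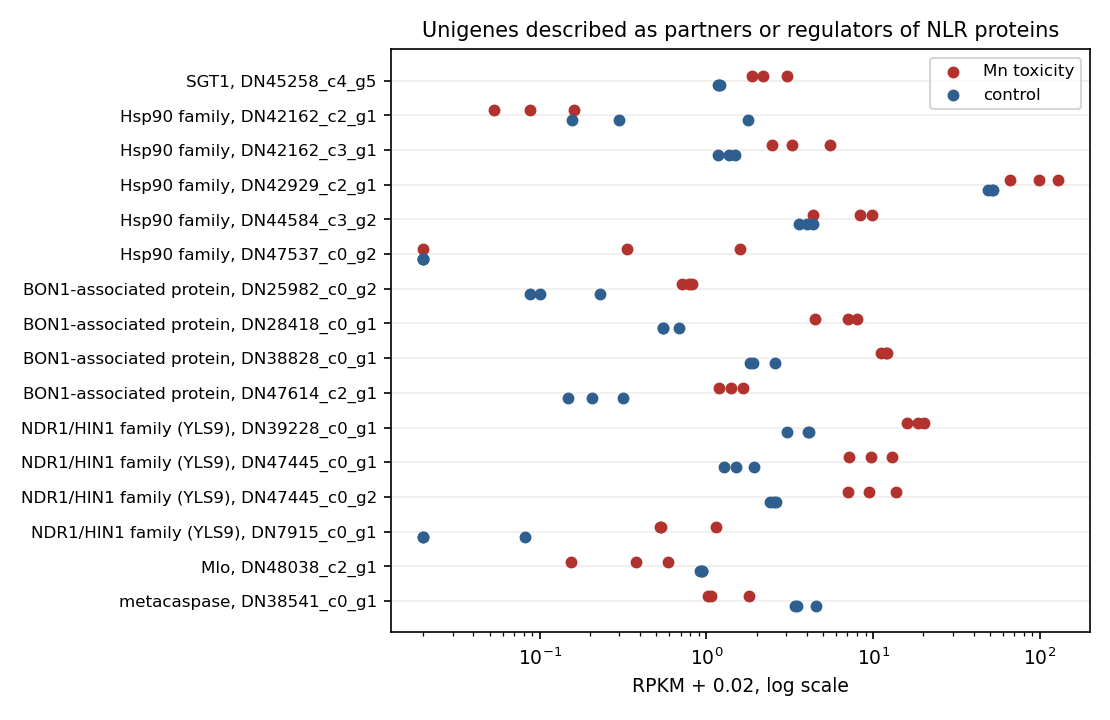
RPKM of the 16 unigenes of the partner list, which also holds other proteins of defence or cell death, on a log axis after adding 0.02. Mn toxicity libraries are red (upper dots) and control libraries blue (lower dots). Each dot is a library. BON1-associated and NDR1/HIN1 unigenes lie higher in all 3 Mn toxicity libraries than in any control library, and Mlo and metacaspase lie lower.

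NLR proteins act against pathogens, and transcripts of other organisms were therefore counted. Descriptions are at hand for differentially expressed unigenes alone, so these sums are not the whole level of an organism. The summed level of 15 fungus-described unigenes was 4.13, 1.30 and 12.7 RPKM in Mn toxicity libraries 1, 2 and 3, against 3.76, 3.68 and 15.1 RPKM in the control libraries. The sum was high in library 3 of both treatments, but through different unigenes. TRINITY_DN51161_c0_g1 had 2.67 RPKM in Mn toxicity library 3 and 0 in control library 3. For TRINITY_DN6987_c0_g1 these values were 0.0831 and 3.63 RPKM. The oomycete-described unigene had 0.287, 0.550 and 0.336 RPKM and the spider mite-described unigene 0.652, 0 and 1.47 RPKM under Mn toxicity, and both had no control read. Their part in the values of the members was not tested. In bulk leaf tissue fewer cells of a type and less RNA per cell cannot be told apart.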

How the data were processed

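The deposited RPKM were made by the authors, who assembled reads with Trinity, mapped them with Bowtie2 2.2.3 and estimated abundance with RSEM, with no stated scaling or filter and no genome. The sources used here do not say whether counting used strand. With Python 3.11.15, numpy 2.4.6, pandas 2.3.3 and scipy 1.17.1, whole reads behind each member's RPKM were recovered, with the shortest length that makes them whole within 0.01 in all libraries, for all 106 members. Such lengths and reads are lower limits where few libraries are above 0. Limma 3.58.1 in R 4.3.3 was fitted to log2(RPKM + 0.5) over all 6 libraries without covariates, with an intensity trend, a two-sided moderated test and p-values adjusted by Benjamini-Hochberg across all unigenes averaging 0.5 RPKM or more. Reads recovery and fit were tested on simulated data. Folds against no reads use 3 reads per library as the limit.

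Members and lists were chosen with earlier results of these data known. Named were the 6 highest and 6 lowest differences, the 2 most abundant members of each type, members of components with both directions, the dirigent member, the 3 members nearest to a difference of 1 in size, and the partner list. Other named unigenes were chosen after their values were seen. Fold changes in the study's tables were not used. No sequence or coordinate of a member was used here. The alternatives were other pseudocounts, minimum levels and scalings, no trend, a replicate block and leaving out each library. Replicates are hydroponic boxes, and 3 against 3 libraries limit the precision.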

Additional observations from a re-analysis of the deposited data

How the results depend on the processing

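No named member changed direction under any of the 15 alternatives: 477 of the 502 refitted differences of the 34 named members with a fitted value moved by less than the spread between replicates and 25 by more, mostly with another pseudocount, and the medians of the 4 groups stayed within it. The number of members called was 82 with median-of-ratios scaling and 81 with quantile normalization, with 28 called higher under each. With no minimum level 20 members were called lower, and with a minimum of 1 RPKM 4 were called higher. For quantile normalization and these minimum levels the shares over all unigenes are not given here. Nothing is therefore read from these counts about the members. Equal sums of RPKM gave 1179 called unigenes in all. Leaving out 1 library gave 9 to 75 members called, 4 to 29 called higher and 4 to 60 called lower, and 289 to 4977 of all unigenes. The replicate numbers did not pair the libraries, since same-numbered libraries deviated with correlations of 0.075, -0.15 and -0.084. With the replicate block 72 members and 2693 of all unigenes were called. Few reads limit the weakest members, whose fitted differences depend on the pseudocount.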
